A study of Citrus sinensis with 6 samples.

Results

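Genes for 4 of the enzyme activities that take chlorophyll apart were followed in leaves of sweet orange (*Citrus sinensis*) seedlings with and without salt. The genes were found by function: each gene whose molecular-function terms in the deposited annotation named chlorophyll(ide) b reductase, pheophytinase, pheophorbide a oxygenase or red chlorophyll catabolite reductase activity was taken, and these were 7 of 29875 genes. The rule used annotation terms and no expression value, though it was set with earlier results of these data known. It covered no activity for the removal of magnesium. Genes without a function term, such as 8 of the porphyrin pathway, could not be found by it. By activity, 4 genes carried the chlorophyll(ide) b reductase term (called CBR here), and 1 each that of pheophytinase (PPH), pheophorbide a oxygenase (PAO) and red chlorophyll catabolite reductase (RCCR).

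The leaves came from tissue-cultured seedlings with 3 control libraries to which no NaCl was added and 3 libraries from seedlings given 2% NaCl, at 14 days in both groups. The study drew its replicates from separate sets of seedlings of each group, and the labels name no genotype or transgene. The control titles name leaf blades and sterile water while the NaCl titles name leaf, and a treatment note shared by all 6 samples speaks of boron and of a longer treatment. The titles and treatment labels were followed, and the study's methods also give 2% NaCl for 14 days. For the control the methods name standard MS culture medium without salt, where the titles name sterile water. An effect of the part of the leaf or of the control solution cannot be told apart from that of NaCl.

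Green leaves lose chlorophyll through a chain of plastid enzymes. Chlorophyll b is turned back toward chlorophyll a by CBR (in *Arabidopsis* and rice the NYC1 and NOL proteins) and then by 7-hydroxymethyl chlorophyll a reductase, the central magnesium is removed, and PPH cuts off the phytol tail to give pheophorbide a. PAO then opens the porphyrin ring, the step at which the green colour is lost, and RCCR reduces the red product to a colourless fluorescent one that is carried to the vacuole. The chain is best known from leaf senescence, and it protects the cell because free chlorophyll and its green breakdown products react to light and form harmful oxygen species.

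Values were FPKM, the fragments counted for a gene per kilobase of its length and scaled to the depth of the library. Levels can be set side by side between genes only as far as the gene lengths used are right. The depth recovered from these values was 14325408 to 17558452 reads in control and 17307079 to 19520980 in NaCl. Leaf identity was seen in the chlorophyll-binding genes, of which 12 of 13 were expressed (summed level 1266 to 2696 FPKM in control and 1844 to 2999 FPKM in NaCl) and 1 was listed at 0. Of 6 genes of the Casparian strip, a root structure, 2 passed the filter on low values and 2 were listed at 0 throughout (summed level 6.04 to 7.34 FPKM in control and 9.57 to 15.4 FPKM in NaCl). Of 29 genes of pollen wall formation, 11 passed the filter and 7 were listed at 0 (42.6 to 64.4 FPKM in control and 57.4 to 68.1 FPKM in NaCl). The Casparian strip sum was thus higher in every NaCl library, and its part in the results below was not tested. In whole leaves, fewer cells of a type and less RNA per cell cannot be told apart. On the first principal component of all tested genes, control replicate 2 lay at -9.50, nearer to the NaCl libraries (25.6 to 51.7) than control replicates 1 and 3 did (-51.5 and -66.3).

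None of the 6 tested breakdown genes passed the test. PAO and RCCR, of the final steps, were higher in every NaCl library than in every control library, as were 23.6% of all tested genes. Of the 7 genes, 6 were expressed highly enough to test (0.5 FPKM or more in 3 or more libraries), and a gene counted as called where limma on log2(FPKM + 1) gave an adjusted p no higher than 0.05 (Benjamini-Hochberg, 17285 genes) and a difference of 1 or more on the log2 scale. The count of calls was 0 of 6, in a data set where 0.978% of all tested genes were called higher and 1.75% lower in NaCl (2.73% in all). By the adjusted p alone the count was again 0, against 1.31% of all tested genes higher and 1.93% lower. At an unadjusted p of 0.05, 3 of the 6 were higher (PAO, RCCR and the CBR gene Cs_ont_7g010180), against 19.1% of all tested genes, and voom on recovered reads likewise called 0. All 6 tested genes had a positive log2 fold change, from 0.31 to 0.89 with a median of 0.57, where 64.7% of all tested genes were positive and their median was 0.18. Groups were separated upward for 2 of the 6, against 23.6% of all tested genes. No breakdown gene was separated downward, as 12.4% of all tested genes were.

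**Figure D1:**
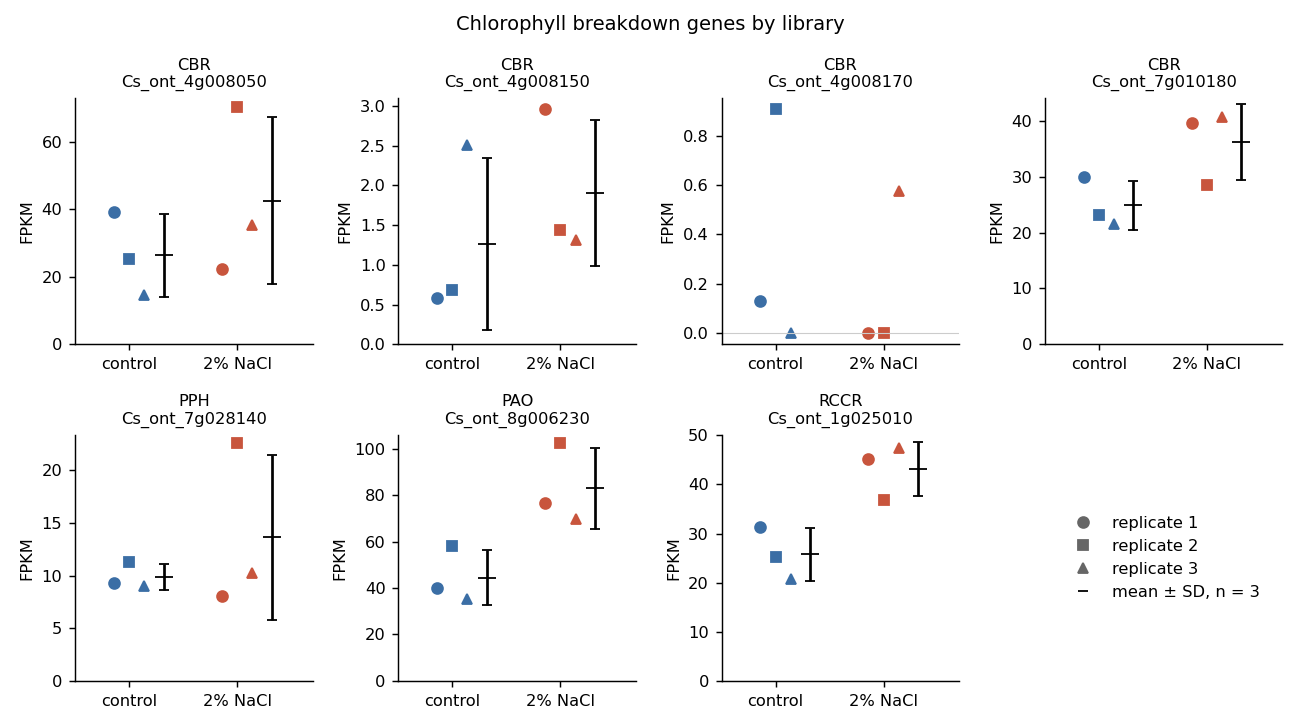
FPKM of the 7 breakdown genes in each library, control in blue and 2% NaCl in red, with the replicate given by the symbol and the mean ± SD (n = 3) in black, left out for Cs_ont_4g008170, which was listed at 0 in 3 libraries. Only for PAO and RCCR do all 3 NaCl points lie above all 3 control points. Each panel has its own scale.

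PAO (Cs_ont_8g006230) was the most expressed of the 7 genes in each of the 6 libraries. It encodes the iron-sulphur oxygenase that opens the ring of pheophorbide a. The control libraries held 40.1, 58.0 and 35.3 FPKM, and the NaCl libraries held 76.6, 102.6 and 69.6 FPKM. The lowest NaCl value was thus above the highest control value, which was that of control replicate 2, and the highest NaCl value was that of replicate 2. The mean was 44.5 ± 11.97 FPKM (SD, n = 3) without salt and 82.9 ± 17.4 FPKM (SD, n = 3) under NaCl, a ratio of 1.86. The log2 fold change was 0.89 (SE 0.24, 95% interval 0.33 to 1.46, limma adjusted p = 0.0763), which missed both thresholds. These values rested on 1119 to 4032 reads per library. Without control replicate 2 the gene passed both (log2 fold change 1.10, limma adjusted p = 0.0231), and 5.3% of all tested genes were then called higher. The other 5 ways of leaving out a library gave limma adjusted p values of 0.124 to 0.237 for it.

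RCCR (Cs_ont_1g025010) showed the second separated pair of groups. It encodes the reductase that acts on the red product released by PAO. Control libraries held 31.4, 25.2 and 20.7 FPKM and NaCl libraries 45.2, 36.9 and 47.4 FPKM. Here NaCl replicate 2 was the lowest of its group, where for PAO it was the highest. The means were 25.8 ± 5.40 FPKM (SD, n = 3) without salt and 43.2 ± 5.57 FPKM (SD, n = 3) under NaCl, a ratio of 1.68. The log2 fold change was 0.73 (SE 0.19, 95% interval 0.28 to 1.19, limma adjusted p = 0.0742), the lowest adjusted p of the 6 tested genes. Leaving out single libraries gave log2 fold changes from 0.59 to 0.88 and adjusted p from 0.0630 to 0.253 from limma, so that no such setting brought a call. For PAO and RCCR alike an exact two-sided permutation test of the group means gave p = 0.1, the smallest that 3 libraries against 3 allow.

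PPH (Cs_ont_7g028140), the esterase that removes the phytol tail, was level except in 1 library. The control libraries held 9.30, 11.3 and 9.002 FPKM. The NaCl libraries held 8.09, 22.5 and 10.2 FPKM, so that only NaCl replicate 2 stood above the control range, and NaCl replicate 1 stood below it. The means were 9.86 ± 1.25 FPKM (SD, n = 3) without salt and 13.6 ± 7.80 FPKM (SD, n = 3) under NaCl, and the log2 fold change was 0.31 (SE 0.35, 95% interval -0.53 to 1.14, limma adjusted p = 0.566). Without NaCl replicate 2 the log2 fold change was -0.10 (limma adjusted p = 0.755), and without NaCl replicate 1 it was 0.59. Quantile normalization gave 0.10 and upper-quartile scaling 0.19. The reads behind the values, 704 to 2188 per library, were many, and the spread lay between libraries.

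Of the 4 CBR genes, 2 carried nearly all of the reductase mRNA, together 93.5% to 98.98% of the summed level in each library. Cs_ont_4g008050 held 39.3, 25.3 and 14.7 FPKM without salt and 22.3, 70.2 and 35.2 FPKM under NaCl. Its groups overlapped widely, and the highest value was again that of NaCl replicate 2. The means were 26.4 ± 12.3 FPKM (SD, n = 3) and 42.6 ± 24.8 FPKM (SD, n = 3), with a log2 fold change of 0.62 (SE 0.48, 95% interval -0.53 to 1.76, limma adjusted p = 0.404). Its log2 fold change was 0.19 without NaCl replicate 2 and 0.27 without control replicate 3, and it was 0.99 without NaCl replicate 1 and 0.95 without control replicate 1.

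Cs_ont_7g010180 was at a like level and varied less. It held 29.96, 23.1 and 21.6 FPKM without salt and 39.6, 28.5 and 40.7 FPKM under NaCl. The groups overlapped only through NaCl replicate 2, which lay just below control replicate 1. The means were 24.9 ± 4.46 FPKM (SD, n = 3) without salt and 36.3 ± 6.75 FPKM (SD, n = 3) under NaCl, with a log2 fold change of 0.52 (SE 0.20, 95% interval 0.05 to 0.99, limma adjusted p = 0.138). The log2 fold change stayed between 0.43 and 0.68 whichever library was left out. Which of these genes corresponds to NYC1 and which to NOL is not stated in the annotation.

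The other two CBR genes were close to the limit of detection. Cs_ont_4g008150 held 0.584, 0.689 and 2.51 FPKM without salt and 2.96, 1.44 and 1.31 FPKM under NaCl, from 2 to 10 reads per library. Its groups overlapped, and the log2 fold change was 0.42 (SE 0.38, limma adjusted p = 0.468). This value was unstable, at 0.17, 0.21 and 0.26 without NaCl replicate 1, control replicate 1 and control replicate 2, 0.79 without control replicate 3, 0.75 and 0.82 with pseudocounts of 0.1 and 0.01, and 0.71 with voom. Cs_ont_4g008170 held 0.128, 0.908 and 0 FPKM without salt and 0, 0 and 0.577 FPKM under NaCl, from at most 6 reads, and it did not pass the filter. A count of 0 there allows a level of up to 0.380 to 0.472 FPKM (3 reads, counting error only). The lengths that the FPKM values imply were 195 bases for Cs_ont_4g008150 and 444 for Cs_ont_4g008170, against 1539 for Cs_ont_4g008050. The identifiers of these 3 genes are close in number, and how reads that match more than 1 of them were counted is not given in the sources used here, so the values of the short models are uncertain. The recovered reads and lengths of the short models are the smallest whole numbers that fit the FPKM values. Larger ones are possible, and would lower the limit set by 0 reads.

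Summed over the 4 CBR genes the level was 69.9, 50.03 and 38.8 FPKM without salt and 64.9, 100.2 and 77.8 FPKM under NaCl. The sums overlapped, because control replicate 1 stood above NaCl replicate 1. The share of Cs_ont_4g008050 in the sum ranged from 34.4% in NaCl replicate 1 to 70.1% in NaCl replicate 2, and in control from 38.0% to 56.1%. The widest range of this share was therefore inside the NaCl group. The summed level of all 7 breakdown genes was 103.8 to 150.8 FPKM in control and 194.8 to 262.2 FPKM in NaCl, and PAO made up 26.6% to 40.2% of it.

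The order of the levels was stable at its ends. PAO had rank 1 and PPH rank 5 in all 6 libraries, and the short CBR models were last. The length implied for PPH was 5459 bases, against 2211 for PAO, 1819 for RCCR and 825 for Cs_ont_7g010180. By reads, PPH stood above Cs_ont_7g010180 in every library (704 to 2188 against 255 to 656). The rank and level of PPH in FPKM thus depend on this length, and its effect was not tested. Cs_ont_4g008050, Cs_ont_7g010180 and RCCR changed places between libraries: Cs_ont_4g008050 had rank 2 in control replicates 1 and 2 and NaCl replicate 2, and rank 4 in the other 3 libraries. These 3 genes had control means of 26.4, 24.9 and 25.8 FPKM, which differed by less than their spread. By mean level over the 6 libraries, PAO stood at percentile 90.6 of all tested genes, RCCR at percentile 81.04 and PPH at percentile 53.3.

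The libraries did not move the 5 well expressed genes together. Relative to its own mean over 6 libraries, Cs_ont_4g008050 stood at 2.04 and PPH at 1.92 in NaCl replicate 2, and at 0.647 and 0.689 in NaCl replicate 1. In NaCl replicate 2 PAO was likewise highest of its group at 1.61. RCCR and Cs_ont_7g010180 went the other way, at 1.07 and 0.932 in NaCl replicate 2 but at 1.31 and 1.29 in NaCl replicate 1 and 1.38 and 1.33 in NaCl replicate 3. The first principal component did not set NaCl replicate 2 apart from NaCl replicate 3, with values of 51.7 and 49.99.

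**Figure D2:**
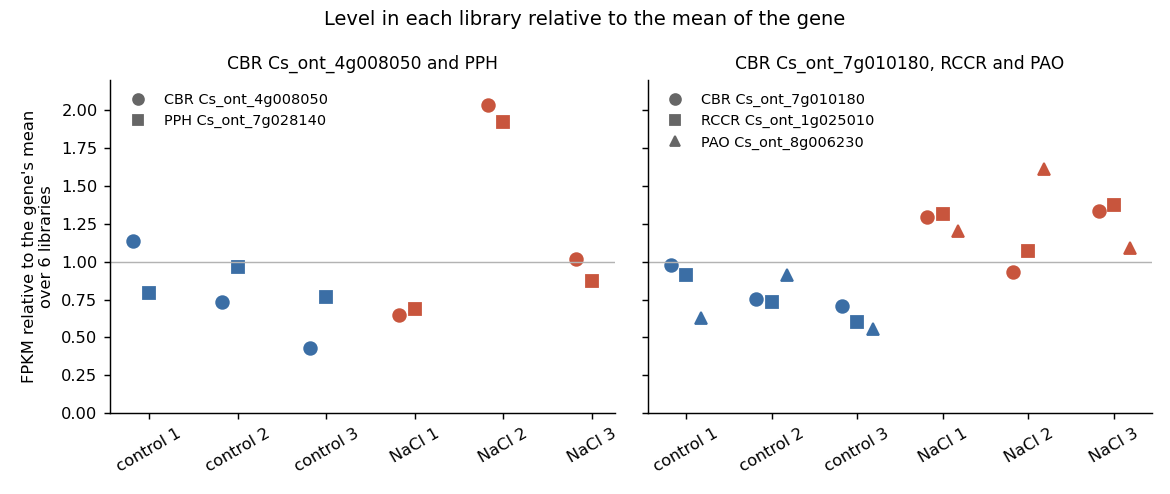
FPKM of 5 breakdown genes in each library, divided by the mean of the gene over 6 libraries (grey line at 1), control in blue and NaCl in red. Cs_ont_4g008050 and PPH (left) stand near 2 in NaCl replicate 2 alone, while RCCR and Cs_ont_7g010180 (right) are lowest there among the NaCl libraries and PAO is highest.

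Ratios of levels within a library were set side by side for 6 pairs of these genes, a choice made after the values were seen. The ratio of Cs_ont_7g010180 to RCCR was the steadiest, from 0.773 to 1.04 over the 6 libraries, with 0.971 ± 0.0645 (SD, n = 3) in control and 0.836 ± 0.0548 (SD, n = 3) in NaCl. Its groups did not overlap (exact permutation test, p = 0.1, adjusted p = 0.6 over 6 ratios). The ratio of PAO to PPH was 4.32, 5.14 and 3.92 in control and 9.47, 4.55 and 6.79 in NaCl, and overlapped through NaCl replicate 2 (exact permutation test, p = 0.2, adjusted p = 0.6). The ratio of PAO to RCCR was 1.76 ± 0.517 (SD, n = 3) in control and 1.98 ± 0.703 (SD, n = 3) in NaCl (exact permutation test, p = 0.7, adjusted p = 0.84), with a range of 1.28 to 2.78 over the 6 libraries. With 3 libraries against 3 none of these exact tests could go below p = 0.1.

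**Figure D3:**
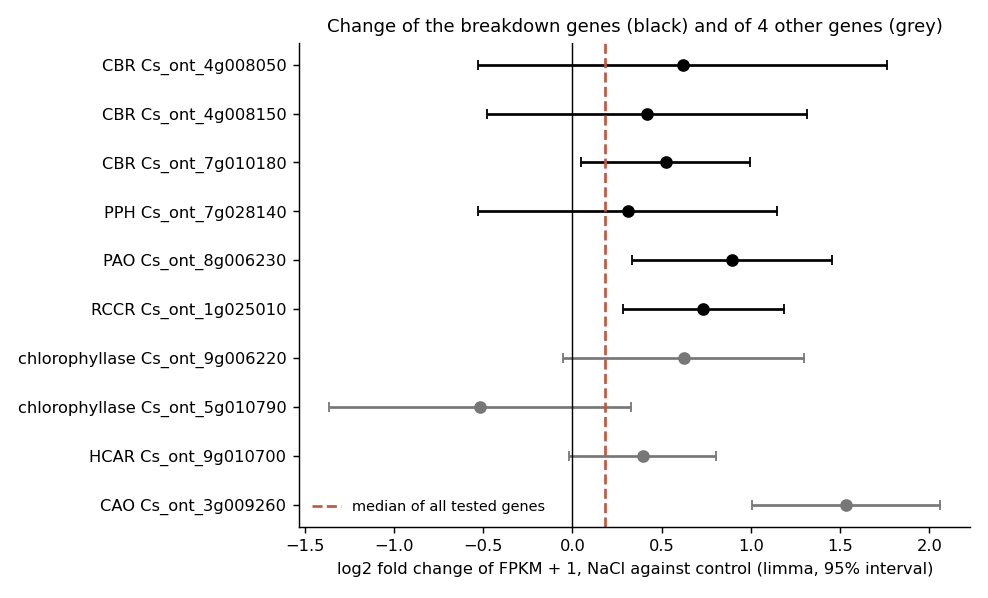
Log2 fold change of FPKM + 1 with its 95% interval from limma for the 6 tested breakdown genes (black) and for 4 other genes of chlorophyll turnover (grey; HCAR is 7-hydroxymethyl chlorophyll a reductase, CAO chlorophyllide a oxygenase). The dashed line is the median of all tested genes, 0.18, and only the interval of CAO lies wholly above a log2 fold change of 1.

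Around these enzymes, the chlorophyll cycle showed a clearer difference at the step that makes chlorophyll b. Chlorophyllide a oxygenase (Cs_ont_3g009260), which works against CBR by turning the a form into the b form, held 3.54, 2.87 and 2.74 FPKM without salt and 9.64, 8.78 and 14.4 FPKM under NaCl. All NaCl libraries lay well above the control libraries, where 23.6% of all tested genes were separated upward. The gene passed both thresholds with a log2 fold change of 1.53 (SE 0.22, limma adjusted p = 0.0390), where 0.978% of all tested genes were called higher. With single libraries left out it passed only without control replicate 2 (adjusted p = 0.0202), and the range was 0.0202 to 0.168 from limma. The replicate number as a block gave an adjusted p of 0.0809. The ratio of this gene to the summed CBR level was 0.0506, 0.0574 and 0.0706 in control and 0.149, 0.0876 and 0.184 in NaCl, without overlap (exact permutation test, p = 0.1, the smallest possible). The gene was named for its low adjusted p, so this ratio restates the same difference and adds no separate evidence. 7-Hydroxymethyl chlorophyll a reductase (Cs_ont_9g010700), which completes the return to chlorophyll a, held 21.3 ± 3.97 FPKM (SD, n = 3) without salt and 28.1 ± 3.22 FPKM (SD, n = 3) under NaCl (log2 fold change 0.39, limma adjusted p = 0.179), with overlapping groups. Its ratio to the summed CBR level was 0.413 ± 0.0741 (SD, n = 3) in control and 0.361 ± 0.0992 (SD, n = 3) in NaCl (exact permutation test, p = 0.6).

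Chlorophyllases cut the phytol tail from chlorophyll itself and are a possible second entry into breakdown, described in *Citrus* fruit peel. Of 6 annotated chlorophyllase genes, 3 were listed at 0 in every library and 2 could be tested. Cs_ont_9g006220 held 7.22, 3.54 and 5.39 FPKM without salt and 8.68, 6.43 and 11.1 FPKM under NaCl (log2 fold change 0.62, or 0.40 without control replicate 2, limma adjusted p = 0.189). Cs_ont_5g010790 held 1.54, 2.77 and 2.14 FPKM without salt and 2.22, 1.40 and 0.328 FPKM under NaCl (log2 fold change -0.52, limma adjusted p = 0.347), and its log2 fold change was -0.80 without NaCl replicate 1 and -0.16 without NaCl replicate 3. Both overlapped between groups. The summed chlorophyllase level, 7.24 to 8.85 FPKM in control and 7.97 to 11.6 FPKM in NaCl, overlapped between groups.

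Transport of the products was read from 8 genes annotated as chlorophyll catabolite transporters, a list added after the annotation was seen. Their terms also name transport of glutathione conjugates, as for ABC transporters of the vacuole membrane. Of these, 5 were tested and 0 passed. The strongest difference was that of Cs_ont_7g022840, with 9.55, 5.78 and 14.4 FPKM without salt and 4.49, 0.514 and 1.83 FPKM under NaCl. Every NaCl value lay below every control value, as for 12.4% of all tested genes. The log2 fold change of Cs_ont_7g022840 was -1.85 (limma adjusted p = 0.0827). With single libraries left out the limma adjusted p ranged from 0.0464 to 0.252 and passed only without control replicate 2, and the replicate block gave 0.0890. The most expressed, Cs_ont_4g020240, ranged from 19.2 to 147.8 FPKM within the control group alone and from 41.3 to 81.0 FPKM in NaCl.

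Of 2 genes that feed the freed phytol back into lipid synthesis, 0 passed the test. Both were separated upward, as were 23.6% of all tested genes. Phytol kinase (Cs_ont_7g007820) held 22.9, 16.9 and 18.5 FPKM without salt and 25.1, 23.2 and 29.6 FPKM under NaCl (log2 fold change 0.40, limma adjusted p = 0.162). Homogentisate phytyltransferase (Cs_ont_4g025830), the entry into tocopherol synthesis, held 14.3, 21.6 and 11.6 FPKM without salt and 24.2, 25.2 and 23.0 FPKM under NaCl (log2 fold change 0.62, limma adjusted p = 0.127). Without control replicate 2 the latter had a limma adjusted p of 0.0195 and a log2 fold change of 0.85, still short of 1, and the leave-one-out range of its adjusted p was 0.0195 to 0.331.

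Most genes of chlorophyll synthesis had fold changes of the same sign as the breakdown genes. Of 23 genes annotated with its enzymes, 15 were tested, 14 had a positive log2 fold change, 1 was called higher (chlorophyllide a oxygenase) and 0 were called lower, with a median of 0.46 against 0.57 for the 6 breakdown genes. The gene with the next lowest adjusted p, Cs_ont_9g020430, is annotated with magnesium chelatase activity, the entry of the chlorophyll branch. It held 12.6 ± 5.93 FPKM (SD, n = 3) without salt and 39.0 ± 10.1 FPKM (SD, n = 3) under NaCl, and missed the threshold (log2 fold change 1.61, limma adjusted p = 0.0517). Leaving out single libraries gave limma adjusted p values of 0.0431 to 0.206, of which only that without control replicate 2 passed, and the replicate block gave 0.0914. Of 12 tested chlorophyll-binding genes, all had a positive log2 fold change (median 0.72, from 0.06 to 0.98) and 0 passed. At an unadjusted limma p of 0.05, 6 were higher. Of all tested genes, 64.7% were positive, 19.1% were higher at that p, 0.978% were called higher and 1.75% lower. The breakdown genes thus did not stand apart in sign from synthesis or from the chlorophyll-binding proteins, and no test compared these lists.

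A wider list held the other genes with chlorophyllase activity or a chlorophyll catabolic or metabolic process term. Of its 26 genes 20 were tested, and 3 were called higher and 0 lower (median log2 fold change 0.43). Over all tested genes the shares were 0.978% higher and 1.75% lower. This list shares 11 genes with the synthesis list. Its first gene by adjusted p, and 1 of the 3 called, was chlorophyllide a oxygenase, already counted with synthesis. Its second gene by adjusted p was Cs_ont_5g015520, with violaxanthin de-epoxidase activity, which serves light protection and does not act on chlorophyll (4.67 ± 0.969 FPKM against 11.6 ± 2.22 FPKM under NaCl, SD, n = 3 per group, log2 fold change 1.15, limma adjusted p = 0.0470). With single libraries left out its limma adjusted p ranged from 0.0238 to 0.202 and passed only without control replicate 2, and the replicate block gave 0.101. Of the 8 other genes with the chlorophyll catabolic process term, 4 were tested and 0 passed (median log2 fold change -0.00107).

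In the porphyrin metabolism pathway, which holds 6 of the 7 breakdown genes, 38 of 45 genes were tested. Log2 fold changes were positive for 34 and negative for 4 (median 0.44), where 64.7% of all tested genes were positive. Of the 38, 2 were called higher and 0 lower, against 0.978% and 1.75% of all tested genes. Beside chlorophyllide a oxygenase the second was Cs_ont_1g025020, whose identifier directly follows that of RCCR and which carried no function term. It held 3.95, 4.78 and 0.839 FPKM without salt and 18.6, 61.7 and 24.9 FPKM under NaCl. Each NaCl value was above each control value, as for 23.6% of all tested genes, and NaCl replicate 2 was highest. The log2 fold change was 3.08 (SE 0.57, limma adjusted p = 0.0465), and with single libraries left out it passed only without control replicate 2, where the adjusted p was 0.0250 (range 0.0250 to 0.193 from limma). With the replicate block its limma adjusted p was 0.0729. Whether this gene acts in chlorophyll breakdown is not stated in the annotation.

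Among genes annotated with leaf senescence, the developmental setting in which chlorophyll breakdown is best known, 57 of 76 were tested, 3 were called lower and 0 higher. Over all tested genes, 1.75% were called lower, 0.978% higher and 64.7% were positive, with a median of 0.18. In the senescence list, log2 fold changes were positive for 39 and negative for 18, with a median of 0.30. The lowest adjusted p belonged to a pair of diphenol oxidoreductases, with log2 fold changes of -6.04 for Cs_ont_7g020660 and -2.97 for Cs_ont_1g002760 (adjusted p = 0.00556 and 0.0366 from limma). Cs_ont_7g020660 lost its call only without control replicate 3 (limma adjusted p = 0.0651), and Cs_ont_1g002760 kept its call only without control replicate 2 (leave-one-out range 0.0130 to 0.160 by limma).

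The genes most like RCCR in their pattern over the 6 libraries were sought among 4764 well expressed tested genes with a function term. Cs_ont_6g023950, whose terms name a protein-disulphide reductase, had a Pearson correlation of 0.998 with RCCR, Cs_ont_8g012420 had 0.996 and Cs_ont_1g002250, annotated as a transporter, had 0.995. Cs_ont_6g023950 held 87.8, 63.3 and 48.6 FPKM without salt and 136.1, 111.7 and 152.7 FPKM under NaCl, with the same low value in NaCl replicate 2 among its group. Correlations over 0.95 were found for 137 genes, and over 6 libraries in 2 groups such values describe a shared difference between the groups as much as a shared order within them.

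**Figure D4:**
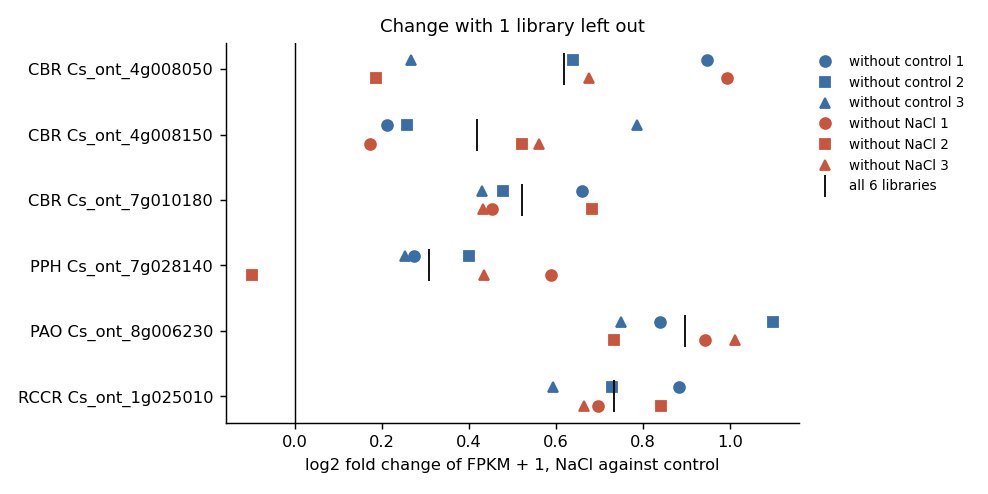
Log2 fold change of FPKM + 1 for the 6 tested breakdown genes with each library left out in turn (symbols, blue where a control library and red where a NaCl library was left out) and with all 6 libraries (bar). PPH turns to -0.10 without NaCl replicate 2, PAO reaches 1.10 without control replicate 2, and the other 4 genes stay above 0.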

How the data were processed

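Total RNA from leaves was sequenced in 3 control and 3 NaCl libraries. The authors trimmed and aligned the reads (HISAT2) and deposited FPKM per gene for 29875 genes. The counter is featureCounts in the study's methods and HTSeq in the submitters' processing notes. The deposited table also holds the authors' group means of FPKM, log2 fold changes and p-values, none of which was used here. None of the identifiers matched the RefSeq gene table of DVS_A1.0 (0 matches), so no gene symbols, coordinates or sequences are given. Whole reads were recovered from the ratios of FPKM between libraries (100% of 23073 genes above 0, relative tolerance 1e-09) and depth from gene lengths being whole numbers (98.6% of well covered genes within 0.01 bases).

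The 17285 genes that reached 0.5 FPKM in 3 or more libraries were fitted in R 4.3.3 by limma 3.58.1, with a mean-variance trend, on log2(FPKM + 1), with no covariate and Benjamini-Hochberg adjustment. That scale understates the change of low genes. The fit was checked on simulated data. Permutation tests used SciPy 1.17.1 in Python 3.11.15 with pandas 2.3.3. P-values set the difference between groups against the spread between libraries. The study drew each replicate from several seedlings, so the spread between single seedlings is not measured. Alternatives were single libraries left out, a replicate block, other filters (none, 1 FPKM), pseudocounts (0.1, 0.01), scalings, voom on recovered reads, a robust fit and the adjusted p alone. The genes, lists and tests were chosen with earlier results of these data known. Named were all 7 genes, up to 2 genes of each list, taken by adjusted p, and the 3 genes most like RCCR. The chlorophyllases, 7-hydroxymethyl chlorophyll a reductase, Cs_ont_4g020240 and the ratios were added after their values were seen. Lists were matched on term names, and 3183 genes had process terms that were left out.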

Additional observations from a re-analysis of the deposited data

How the results depend on the processing

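The count of breakdown genes called was 0 with all libraries and 0 to 1 with single libraries left out, the 1 being PAO without control replicate 2, and 0 under every other alternative run. Of 90 log2 fold changes of the 6 tested genes under 15 alternatives, 88 kept their sign and the outcome of the call. The exceptions were that of PAO without control replicate 2 and that of PPH without NaCl replicate 2 (-0.0978, with 0.589 as its highest value with single libraries left out), and why these libraries differ was not tested. PAO also passed the fold threshold alone without NaCl replicate 3 (1.01, limma adjusted p = 0.214). Over all genes, 472 were called with all libraries and 0 to 1800 with single libraries left out, 7 with the replicate block, 40 with no filter and 308 with a pseudocount of 0.01, and the cause was not tested. The split of calls was 169 higher and 303 lower, and 124 or 85 were higher under quantile normalization (471 called) or upper-quartile scaling (360 called). The median of all tested genes fell from 0.18 to 0.08 on the log2 scale under quantile normalization and upper-quartile scaling, a shift of 0.10, under which PAO had 0.84 and 0.77, RCCR 0.64 and 0.61, and PPH 0.10 and 0.19. The same-numbered libraries shared no deviation (correlations of -0.03, 0.03 and -0.07), so the numbers were not read as pairs, and the replicate block changed no call of a breakdown gene (0 called). Depth limits only the 2 short CBR models, at 0 to 10 recovered reads per library.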
